A study of Homo sapiens with 24 samples.

Results

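Stress granule RNA-binding proteins form the set described here, 10 genes of the 20345 gene IDs in the count table. The members G3BP1, G3BP2, CAPRIN1, ATXN2, ATXN2L, TIA1, TIAL1, PABPC1, FMR1 and FXR1 were chosen by name, not by a threshold on measured values, and each matched 1 Ensembl ID. RNA was sequenced from cells labelled A2058, an established human melanoma line, in 24 libraries, taken here as 12 cultures. A control siRNA (siCTRL) or an siRNA against LSM14A (siLSM14A) was transfected, and cells were left untreated (NT) or received hydroxyurea (HU) at 10 mM for 2 h, which gives 4 conditions with 3 replicates each. Each replicate number of a condition has 1 library from total RNA and 1 from polysomal RNA, the RNA of the heavy end of a sucrose gradient. Both were selected for poly(A) tails. The 2 libraries are treated as 1 culture by their matching numbers, which the labels do not state. All values come from 1 cell line with transient knockdown, and the labels do not say whether replicates were grown separately, so p-values measure the spread between these samples.

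Stress granules are cytoplasmic condensates of mRNA and protein that form when translation initiation stalls, commonly after phosphorylation of the initiation factor eIF2. G3BP1 and G3BP2 are the paralogous scaffolds that nucleate them together with RNA, and CAPRIN1 is a G3BP partner that favours assembly. LSM14A is an RNA-binding protein of P-bodies, the related granules of mRNA decay and storage, and HU inhibits ribonucleotide reductase and stalls DNA replication. The comparisons asked whether the mRNAs of the granule proteins changed with HU or with loss of LSM14A. Their amount and their representation on heavy polysomes were compared, both relative to the other mRNAs of a library. The mRNAs of these genes were measured here, not granules or proteins.

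The knockdown and the cell type were checked first. In total RNA LSM14A was at 84.3 ± 2.33 CPM (read counts relative to library size, scaled with TMM factors; SD, n = 3) in siCTRL NT and 7.52 ± 0.708 in siLSM14A NT, and at 85.9 ± 5.08 and 6.81 ± 0.794 with HU. Total RNA libraries held 24789280 to 40645263 counts and polysomal libraries 28776634 to 44897501. The 7 melanocyte and melanoma markers were present in every total RNA library, from MLANA at a median of 7.97 CPM to DCT at 781. Of the markers of other cell types, EPCAM had 0 to 3 counts and PTPRC 0 to 10 counts per library, and KRT14 had 1.00 to 2.83 CPM. Across 12855 genes the median coefficient of variation over the 12 cultures was 7.51% in total RNA and 17.3% in polysomal RNA.

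The 10 genes differ in base composition, which matters for the ratios below. The exons of TIA1 hold 35.1% G and C, those of FXR1 36.7%, FMR1 38.1%, TIAL1 39.2%, G3BP1 39.6%, G3BP2 41.1%, CAPRIN1 41.8%, PABPC1 43.9%, ATXN2 46.3% and ATXN2L 57.5%. The median of the tested genes was 47.7%, so 9 members lay below it and ATXN2L alone above it. Coding sequences from the Gencode v44 transcripts on hg19 show this for the pairs of paralogs. Each line gives 30 coding bases, 5′ to 3′, with G and C in capitals, taken where the base composition is nearest to that of the whole coding sequence. They are shown because TIA1 and TIAL1 are alike in base composition and ATXN2 and ATXN2L are not.
TIA1: aaGaCtCtataCGtCGGtaaCCtttCCaGa
TIAL1: CtataCGtaGGtaaCCtttCCaGaGatGtG
ATXN2: CtGGGCaGaGGtCGaaaCaGtaaCaaaGGa
ATXN2L: ttGaaGCCtCaGCCGCtaCaaCaGCCCtCC

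The whole coding sequences hold 43.6% G and C in TIA1, 43.3% in TIAL1, 50.5% in ATXN2 and 60.4% in ATXN2L. The stretches have 13, 13, 15 and 18 G or C bases. On hg19, TIA1 lies at chr2:70436576-70475792 and TIAL1 at chr10:121331314-121356541, both on the minus strand. ATXN2 lies on the minus strand at chr12:111881289-112037480 and ATXN2L on the plus strand at chr16:28834320-28848558. G3BP1 spans chr5:151150606-151192472 and CAPRIN1 chr11:34073278-34124157, both on the plus strand, and G3BP2 spans chr4:76567033-76649773 on the minus strand. FMR1 is on the plus strand at chrX:146993437-147032645, FXR1 on the plus strand at chr3:180585929-180700541, and PABPC1 is on chromosome 8. Counts cover the exons, UTRs included. TIA1 shares a small part of its exons with C2orf42 on the same strand (96.8% of its exonic bases are its own). Of its canonical transcript, 2.47% of the 100-base words also occur in C2orf42, and 2.32% of the 100-base words of the PABPC1 transcript also occur in transcripts of other genes, PABPC3 among them. Counts of TIA1 and PABPC1 are uncertain to that extent, and the other 8 members shared no such word.

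PABPC1, the cytoplasmic poly(A)-binding protein, was the most abundant of the 10 mRNAs. Per kilobase of canonical transcript it reached 297 ± 16.2 CPM in total RNA (SD over the 12 cultures), which is higher than 98.7% of the genes. CAPRIN1 followed at 53.8 ± 2.04 and G3BP2 at 52.3 ± 3.1, with ranges that overlap. G3BP1 and ATXN2L were both at 37.6 (SD 1.71 and 2.6), FXR1 was at 21.8 ± 1.30 and TIAL1 at 20.4 ± 0.844, and within each of these pairs the ranges overlap too. ATXN2 stood at 8.82 ± 0.452, TIA1 at 6.64 ± 0.663 and FMR1 at 5.87 ± 0.283, and the last pair overlaps. The gene counts do not tell isoforms apart, so the level of G3BP1 depends on its long canonical transcript of 10227 bases, of which 8697 are 3′ UTR.

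Total RNA of the members varied little between cultures, with coefficients of variation of 3.79% for CAPRIN1 to 9.98% for TIA1. In polysomal RNA the coefficients ran from 9.97% for TIAL1 to 27.2% for FXR1. The panel of levels by culture shows this difference in spread for all 10 genes.

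**Figure D1:**
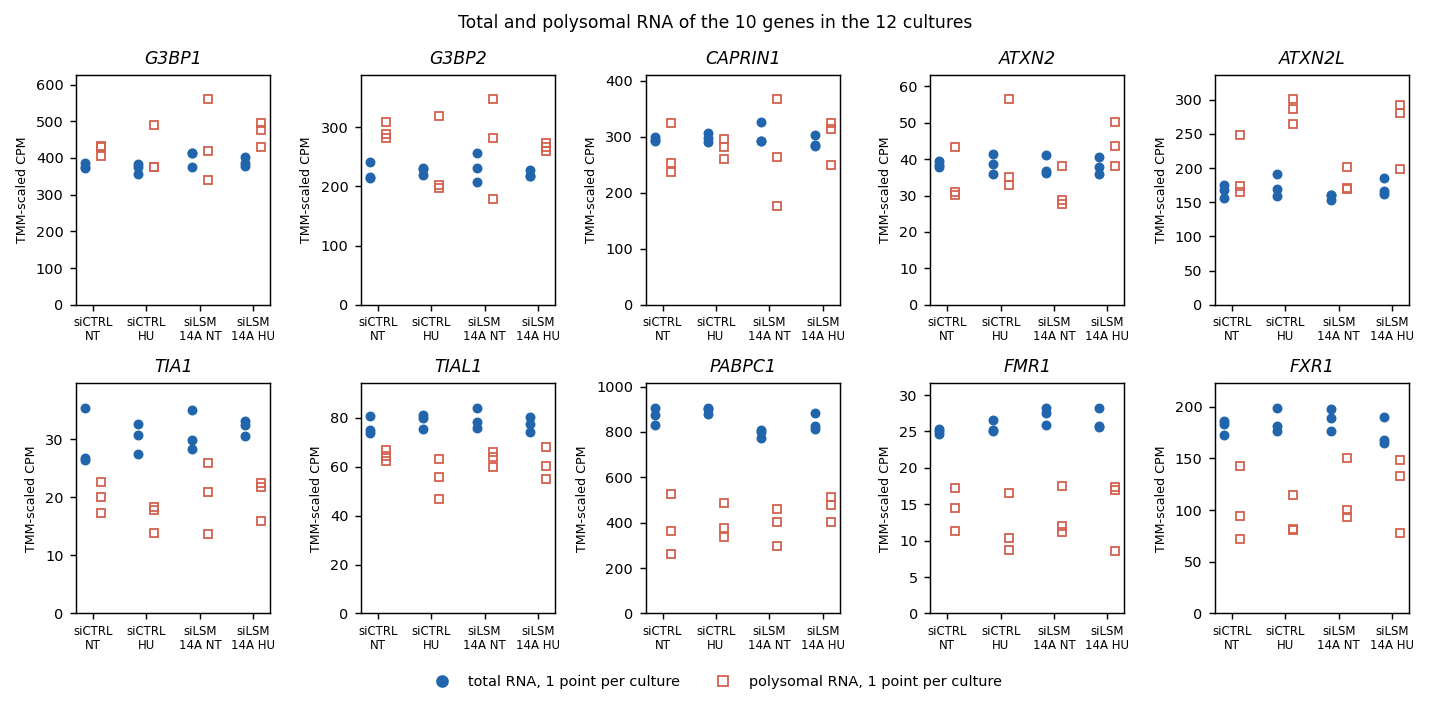
TMM-scaled CPM (vertical axis, from 0) of each gene in the 4 conditions (horizontal axis). Filled circles are total RNA and open squares polysomal RNA, 1 point per culture. As counted, the squares of PABPC1, TIA1, TIAL1, FMR1 and FXR1 lie below the circles in all 12 cultures. The share of all genes with this pattern was not counted. The GC correction turns TIA1 and TIAL1 and brings FXR1 near an equal level.

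Relative to total RNA, 5 members were under-represented on heavy polysomes and 3 were over-represented, before any correction for base composition, which turned TIA1, TIAL1 and ATXN2L to the other side and left FXR1 near 0. PABPC1 was lowest, with a log2 difference of polysomal against total RNA of -1.06 (SE 0.09, mean of the 4 conditions). On the TMM scale this puts its polysomal level at 48.0% of its total level. That scale sets each mRNA against the other mRNAs, so 48.0% is not the fraction of PABPC1 mRNA on polysomes. A shift shared by all mRNAs would not show. FMR1, the fragile X protein, and its paralog FXR1 were at -0.95 (SE 0.11) and -0.77 (SE 0.11). TIA1 and TIAL1, paralogous regulators of translation and splicing, were at -0.68 (SE 0.09) and -0.36 (SE 0.05). ATXN2L, a paralog of the RNA-binding protein ATXN2, was highest at 0.43 (SE 0.07), followed by G3BP2 at 0.24 (SE 0.09) and G3BP1 at 0.18 (SE 0.06).

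By edgeR these 8 members passed an adjusted p of 0.05, where 84.4% of the 12855 genes did (40.2% higher and 44.2% lower), so their number is close to the background. Adjusted p-values were 3.6e-10 for PABPC1, 6.5e-08 for FMR1, 1.1e-06 for FXR1, 4.4e-07 for TIA1, 9.0e-07 for TIAL1, 7.7e-06 for ATXN2L, 0.014 for G3BP2 and 0.015 for G3BP1. CAPRIN1 at -0.09 (adjusted p = 0.32) and ATXN2 at -0.03 (adjusted p = 0.78) did not pass. The median of the members was -0.22, against -0.06 for all genes tested. Without replicate 1 of siLSM14A NT, G3BP1 (adjusted p = 0.063) and G3BP2 (adjusted p = 0.065) lost their calls and CAPRIN1 gained one, at -0.17 (adjusted p = 0.034). Without replicate 1 of siCTRL HU, G3BP2 also lost its call (adjusted p = 0.058).

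The ratios of single cultures were compared next, as counted. For PABPC1 the log2 ratio was -1.66, -1.27 and -0.78 in siCTRL NT, -1.39, -1.26 and -0.90 in siCTRL HU, -0.79, -0.94 and -1.45 in siLSM14A NT, and -0.67, -1.03 and -0.88 in siLSM14A HU. It was below 0 in 12 of 12 cultures, as were the ratios of FMR1 (-1.61 to -0.56), FXR1 (-1.37 to -0.31), TIA1 (-1.05 to -0.21) and TIAL1 (-0.69 to -0.14). ATXN2L was above 0 in 12 of 12 cultures (0.04 to 0.85), G3BP1 in 10 (-0.28 to 0.58) and G3BP2 in 9 (-0.37 to 0.74). How many of all genes lie on 1 side of 0 in every culture was not counted. In the mean of the 4 conditions 44.2% of all genes were called lower and 40.2% higher, so an even sign is not particular to these members. CAPRIN1 lay on both sides, from -0.73 to 0.33, and so did ATXN2, from -0.52 to 0.66.

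**Figure D2:**
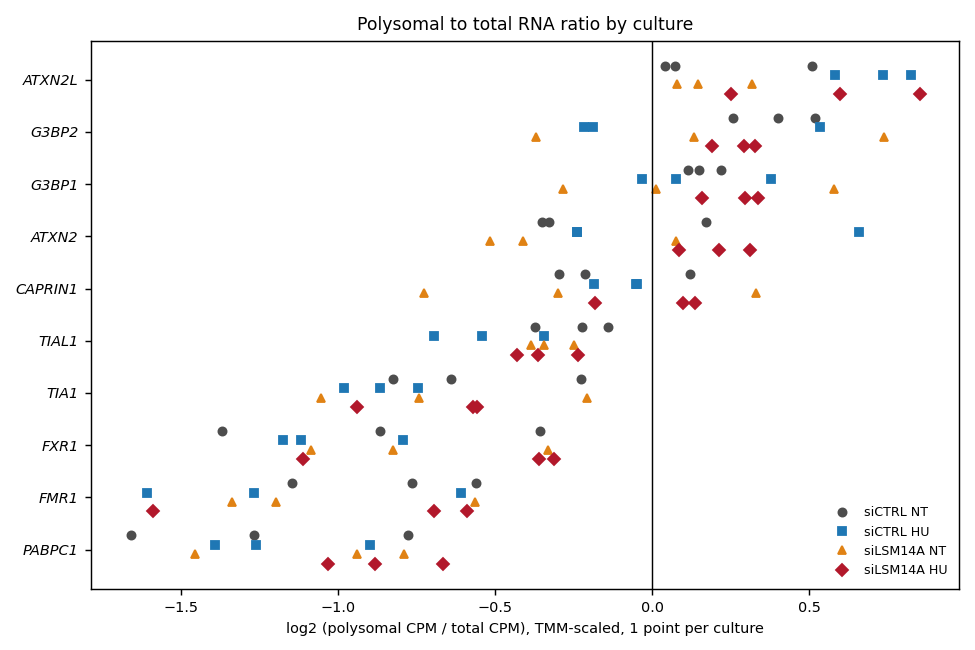
Log2 of polysomal over total CPM (horizontal axis) for each gene (rows), 1 point per culture, with the 4 conditions as separate symbols. As counted, PABPC1, FMR1, FXR1, TIA1 and TIAL1 lie below 0 in all 12 cultures and ATXN2L above 0, from 0.04 to 0.85. The share of all genes on 1 side of 0 in every culture was not counted. The GC correction turns TIA1, TIAL1 and ATXN2L and brings FXR1 near 0.

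Within single conditions the number of members called was 5 of 10 in siCTRL NT (background 63.8%), 6 in siCTRL HU (73.5%), 5 in siLSM14A NT (64.4%) and 8 in siLSM14A HU (66.8%). As counted, PABPC1, FMR1, FXR1 and TIA1 were called lower in each of the 4 conditions, where 32.3%, 37.4%, 32.3% and 34.1% of all genes were. These counts rest on few libraries. In siCTRL NT the count fell to 0 without replicate 2 and to 3 without replicate 1. In siLSM14A NT it fell to 2 without replicate 2 or replicate 3, and in siLSM14A HU to 3 without replicate 1. The share of all genes called in these smaller fits is not given here, so the falls cannot be read as particular to the members.

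The polysomal to total ratio rose with the GC content of the exons across all genes. Over 12855 genes the mean log2 ratio had a Spearman correlation of 0.674 with exon GC, -0.0189 with coding length and -0.396 with 3′ UTR length, given as a description, since genes share libraries. The slope on GC ran from 0.316 to 0.795 log2 units per 10 percentage points between cultures. In siCTRL NT the culture with the lowest slope, replicate 3, had the highest ratio of the 3 cultures for 9 of the 9 members with GC below the median, and in siLSM14A NT so did replicate 1, the lowest there. In siCTRL HU and siLSM14A HU the lowest slope went with the highest ratio for 4 and 2 of the 9. The slopes come from these same ratios over all genes, so a lower slope by itself tends to raise the ratios of low-GC genes. These counts are therefore a description and no test, and the share over all low-GC genes was not counted.

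After the GC trend was taken out of each library, only some of the differences kept their direction. PABPC1 at -0.69 (SE 0.08, adjusted p = 1.4e-08) and FMR1 at -0.27 (SE 0.07, adjusted p = 0.0018) stayed lower in polysomal RNA. G3BP1 at 0.79 (SE 0.06) and G3BP2 at 0.78 (SE 0.08) stayed higher and moved further from 0. TIA1 turned to 0.27 (adjusted p = 0.0019), TIAL1 to 0.28 (adjusted p = 2.5e-05) and ATXN2L to -0.21 (adjusted p = 0.0032), so the direction for these 3 depends on the scaling. FXR1 lost its call at 0.01 (adjusted p = 0.83), CAPRIN1 moved to 0.39 (adjusted p = 1.4e-06) and ATXN2 to 0.14 (adjusted p = 0.099). In this fit by edgeR 8 members passed, where 78.4% of the 12855 genes did, so their number is again close to the background. The correction also removes any difference in translation that runs with GC, and the part of library preparation in the trend was not tested.

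**Figure D3:**
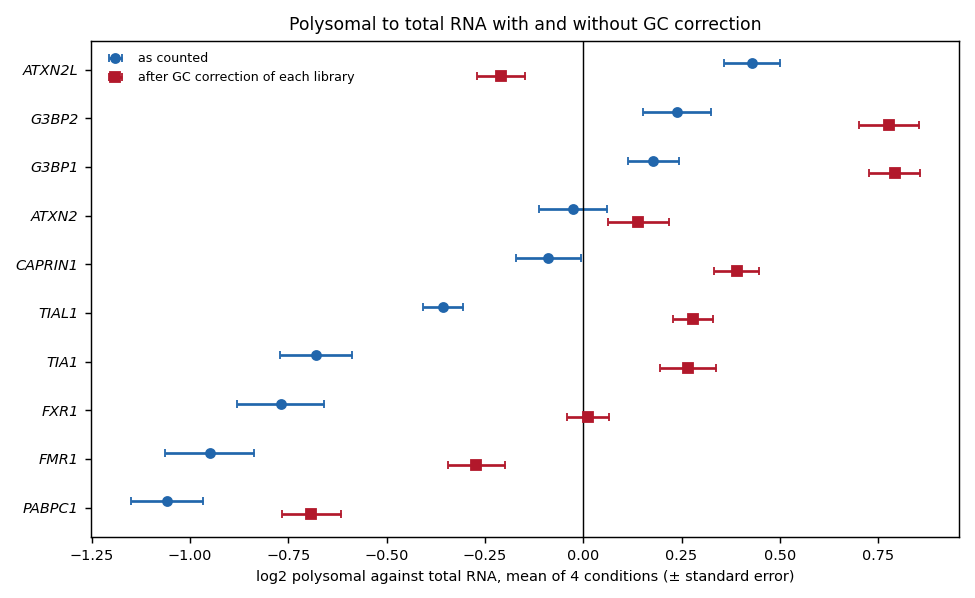
Log2 polysomal against total RNA (horizontal axis, mean of the 4 conditions) for each gene (rows), as counted (circles) and after GC correction (squares), with standard errors. PABPC1 and FMR1 lie below 0 and G3BP1 and G3BP2 above 0 in both, while TIA1, TIAL1 and ATXN2L change side. CAPRIN1, ATXN2 and FXR1 also cross 0, and FXR1 ends next to it.

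Neither HU nor the knockdown changed a member's total RNA past the threshold. By edgeR, 0 of 10 members had an adjusted p under 0.05 in any of the 7 comparisons of total RNA. The background was 0.566% for siLSM14A against siCTRL in NT, 0.802% in HU and 3.13% for their mean, and 0.0% for HU against NT in siCTRL, in siLSM14A, in their mean, and for the difference of both responses. In bulk RNA, fewer cells of a kind and less RNA per cell cannot be told apart. At an unadjusted p under 0.05 the only member was PABPC1, in siLSM14A against siCTRL in NT (background 10.8%) and in the mean of NT and HU (15%). No member met that level in siLSM14A against siCTRL in HU (8.54%), in HU against NT in siCTRL (1.44%), siLSM14A (5.2%) or their mean (4.06%), or in the difference of both responses (2.9%).

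PABPC1 had a small negative difference in total RNA between siLSM14A and siCTRL, which lay on either side of the threshold depending on the fit. Total RNA was at 829, 875 and 905 CPM in siCTRL NT and at 797, 774 and 809 in siLSM14A NT. These groups did not overlap, as was the case for 17.1% of genes in that comparison. With HU it was at 879, 899 and 906 CPM in siCTRL and at 813, 828 and 884 in siLSM14A, which overlap, while 14.7% of genes did not. Within siLSM14A cells PABPC1 and ATXN2L were higher in HU than in NT without overlap, as for 11.8% of genes. Averaged over NT and HU the log2 change of PABPC1 with siLSM14A was -0.12 (SE 0.04, 95% interval -0.19 to -0.04, adjusted p = 0.098 by edgeR). The adjusted p was 0.027 with DESeq2, 0.034 after GC correction and 0.036 when replicate numbers were blocked. Of all genes, 3.13% passed in this comparison by edgeR, 5.09% after GC correction and 5.78% with the block. By the correlation of their deviations, replicate numbers did not pair siCTRL NT with siLSM14A NT, which enter this mean. The change ran from -0.13 to -0.10 when each culture was left out, with no call in the 12 fits. In polysomal RNA, where 6.63% of genes did not overlap between siLSM14A NT and siCTRL NT, PABPC1 did, with 263, 364 and 528 CPM in siCTRL NT and 461, 404 and 295 in siLSM14A NT.

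FMR1 total RNA was higher in siLSM14A NT, at 25.9, 27.5 and 28.2 CPM, than in siCTRL NT, at 24.7 to 25.4. These groups did not overlap either, as for 17.1% of genes, and the log2 change of 0.12 (SE 0.06, adjusted p = 0.53 by edgeR) did not pass. For the remaining 8 members the changes in that comparison lay between -0.07 and 0.08, with overlapping groups.

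A list of 30 other stress granule proteins was drawn up with earlier results of these data known, and 29 could be tested. Of these, 2 passed in total RNA with siLSM14A in the mean of NT and HU, where 3.13% of all genes did. PABPC4, a relative of PABPC1, changed by -0.21 (SE 0.05, adjusted p = 0.025), from 140 ± 7.18 to 124 ± 9.11 CPM in NT (SD, n = 3) and from 146 ± 11.9 to 125 ± 6.95 in HU. IGF2BP3, an mRNA-stabilising protein, changed by -0.21 (SE 0.05, adjusted p = 0.024), from 125 ± 8.61 to 113 ± 10.6 CPM in NT and from 130 ± 7.41 to 108 ± 4.05 in HU. The median of the 29 genes was -0.005, beside -0.003 for all genes. IGF2BP3 alone of the list also passed in HU, at -0.28 (SE 0.06, adjusted p = 0.046), where 0.802% of all genes did. These calls were lost on leaving out any 1 of several cultures, while the changes stayed negative. In the mean IGF2BP3 kept its call in 6 of the 12 fits that left out a culture (-0.245 to -0.180) and lost it without siCTRL NT replicate 1, siCTRL HU replicate 1, siLSM14A NT replicate 1 or 2, or siLSM14A HU replicate 2 or 3. PABPC4 kept it in 4 of 12 (-0.236 to -0.176) and lost it without those same cultures and without siCTRL NT replicate 2 or siCTRL HU replicate 2. In HU, IGF2BP3 kept its call in 1 of 6 such fits, the one without siCTRL HU replicate 3.

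**Figure D4:**
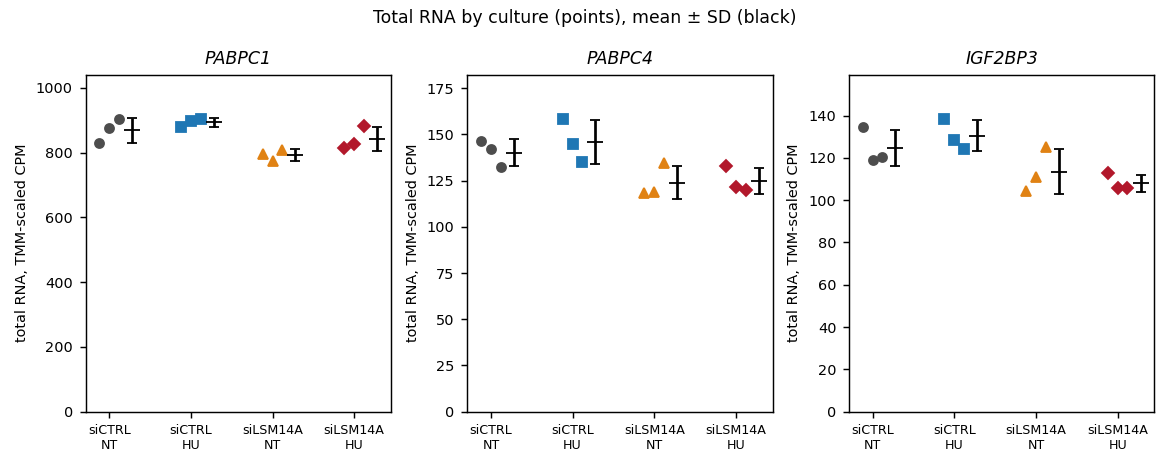
Total RNA in TMM-scaled CPM (vertical axis, from 0) of PABPC1, PABPC4 and IGF2BP3 in the 4 conditions (horizontal axis), with 1 point per culture and the mean ± SD in black. The siLSM14A cultures lie lower on average, from 774 to 884 CPM for PABPC1 against 829 to 906 in siCTRL.

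Replicate numbers paired siCTRL HU with siLSM14A HU in total RNA, by the correlation of their deviations. With the replicate block 6.85% of genes passed in that comparison, and 0 of 10 members did. IGF2BP3 was at -0.28 (SE 0.04, adjusted p = 2.4e-06) and PABPC4 at -0.23 (SE 0.04, adjusted p = 8.0e-05) in the blocked fit. Numbers also paired siCTRL NT with siCTRL HU, where 0.12% of genes and 0 of 10 members passed with the block.

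In the fit without a block, none of the 7 genes of the eIF2 branch, the kinases, the subunit EIF2S1 and the phosphatase subunits PPP1R15A and PPP1R15B, passed in the comparisons of total RNA, and their lowest adjusted p with siLSM14A in the mean of NT and HU was 0.30. With the block, PPP1R15A passed in HU against NT in siCTRL, at 0.31 (SE 0.05, adjusted p = 0.0040).

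In polysomal RNA 0 of 10 members passed in any of the 7 comparisons by edgeR. The background was 0.0162% for siLSM14A against siCTRL in NT, 0.0653% in HU, 0.128% for their mean and 0.0% in the other 4. For translation efficiency (TE), the change of polysomal RNA beyond that of total RNA, 0 of 10 passed in the 7 comparisons, where the background was 0.0% throughout. DESeq2 called PABPC1 in the mean comparison of total RNA given above and no member in the other comparisons between conditions. At an unadjusted p under 0.05 the members were ATXN2L and ATXN2, each with HU. In polysomal RNA ATXN2L met it in siCTRL (background 2.1%), and both genes did in siLSM14A (0.871%) and in the mean (2.26%). In TE ATXN2L met it in siCTRL (2.31%), ATXN2 in siLSM14A (1.41%) and both in the mean (1.97%). No member met it in siLSM14A against siCTRL in polysomal RNA (1.96% in NT, 4.99% in HU and 4.29% in the mean) or TE (0.87%, 3.85% and 1.09%), or in the difference of the HU responses (1.07% in polysomal RNA and 1.9% in TE).

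ATXN2L had the largest positive log2 difference of the members in polysomal RNA between HU and NT, and it did not pass the adjusted threshold. Its polysomal level was 248, 173 and 165 CPM in siCTRL NT and 286, 264 and 301 in siCTRL HU. These did not overlap, as for 7.54% of genes, and the log2 difference was 0.53 (SE 0.19, adjusted p = 0.93 by edgeR). In siLSM14A cells it was 170, 170 and 201 CPM in NT and 281, 293 and 199 in HU, which overlap, while 5.86% of genes did not, with a difference of 0.51 (SE 0.17, adjusted p = 1.00). In TE the difference was 0.48 (95% interval 0.05 to 0.91) in siCTRL, 0.39 (95% interval -0.003 to 0.79) in siLSM14A and 0.44 in their mean (SE 0.14, adjusted p = 1.00). The log2 ratios of the 3 siCTRL HU cultures (0.58 to 0.82) were all above those of siCTRL NT (0.04 to 0.51), as for 7.39% of genes in either direction. As counted, the mean TE difference ran from 0.37 to 0.53 when each culture was left out. After GC correction, with all cultures in the fit, it was 0.40.

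For ATXN2 the log2 ratio was -0.35, -0.33 and 0.17 in siCTRL NT and -0.24, -0.24 and 0.66 in siCTRL HU. In siLSM14A it was 0.08, -0.41 and -0.52 in NT and 0.31, 0.09 and 0.21 in HU, and these last groups did not overlap, as for 5.89% of genes. The TE difference upon HU was 0.48 (95% interval 0.05 to 0.90, adjusted p = 1.00 by edgeR) in siLSM14A and 0.25 (95% interval -0.32 to 0.82) in siCTRL. Their mean was 0.37 (SE 0.17, adjusted p = 1.00), and 0.20 without replicate 3 of siCTRL HU, where it no longer met the unadjusted level.

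The other members had TE differences upon HU that ran from -0.31 for G3BP2 to 0.02 for CAPRIN1 in siCTRL, and from -0.05 for TIA1 to 0.19 for CAPRIN1 in siLSM14A. Their intervals were wide. For G3BP1 it was -0.34 to 0.32 in siCTRL and -0.31 to 0.57 in siLSM14A, and for FMR1 -0.91 to 0.30 and -0.58 to 0.81. A missed threshold at this width does not show that the TE of these genes was alike in NT and HU.

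**Figure D5:**
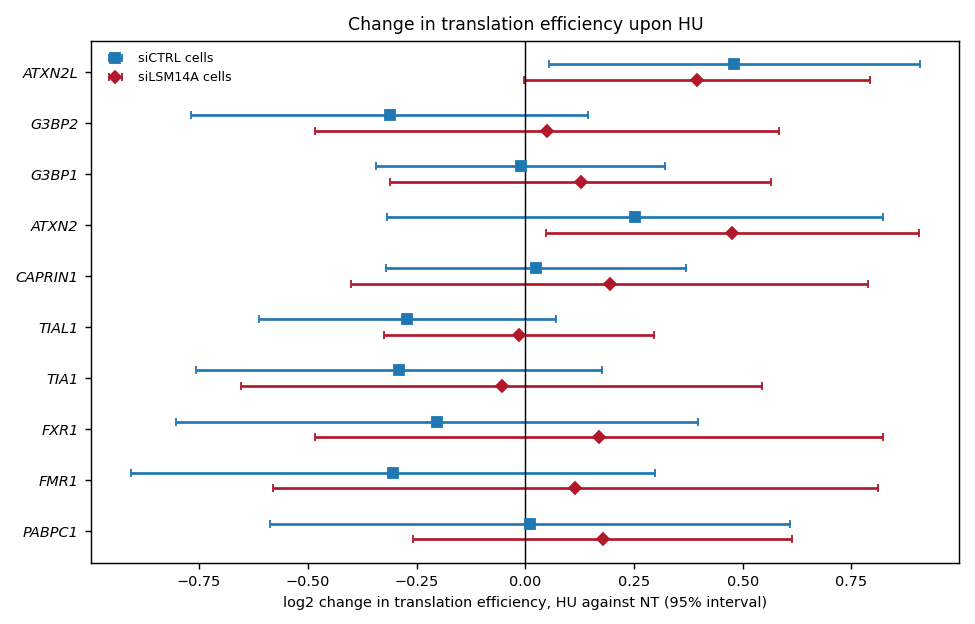
Log2 change in TE upon HU (horizontal axis) of each gene (rows) in siCTRL (squares) and siLSM14A (diamonds) cells, with 95% intervals. The intervals include 0 except for ATXN2L in siCTRL (0.05 to 0.91) and ATXN2 in siLSM14A (0.05 to 0.90).

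The HU response of TE did not differ past the threshold between siLSM14A and siCTRL for any member, with adjusted p-values of 0.90 or more by edgeR. The differences lay between -0.08 for ATXN2L and 0.42 for FMR1 (SE 0.45), and 9 of 10 were above 0, beside 51.5% of all genes. Their median was 0.235, beside 0.015 over all genes, and after GC correction it was 0.036, beside 0.023. In HU, siLSM14A against siCTRL gave a TE difference of 0.48 for FXR1 (95% interval -0.11 to 1.07) and 0.32 for PABPC1 (95% interval -0.08 to 0.72), and both missed the threshold at an adjusted p of 0.78. After GC correction these differences were 0.17 and 0.23, and the median of the members went from 0.192 to 0.007, beside 0.008 and 0.031 over all genes.

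The listed genes were also compared in polysomal against total RNA, with and without GC correction. Of the 29 other stress granule genes tested, 8 were higher and 15 lower by edgeR, where 40.2% of all genes were higher and 44.2% lower. Their median was -0.22, beside -0.06 over all genes. SND1, a nuclease-domain protein, was at 2.16, UBAP2L at 1.18 and FXR2, the paralog of FMR1 and FXR1, at 1.005. NUFIP2 was at -1.21, FAM120A at -0.82, PUM2 at -1.09 and IGF2BP3 at -1.22. After GC correction 17 were higher and 7 lower, where 35.9% of all genes were higher and 42.5% lower, and the 7 genes named here kept their direction, with FXR2 at 0.51 and NUFIP2 at -0.48. In the eIF2 branch 5 of 7 were lower and 0 higher against the same background, among them PPP1R15B at -0.93 and the kinase EIF2AK4 at -0.89. After GC correction 4 were lower, and EIF2S1, named after its value was seen, was higher at 0.66.

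Ratios of paralogs were compared across the 12 cultures as a description, since cultures share the GC trend and fractionation. Pearson's r was 0.877 for G3BP1 and G3BP2, 0.824 for FMR1 and FXR1, 0.693 for TIA1 and TIAL1 and 0.324 for ATXN2 and ATXN2L. ATXN2L ran against TIAL1 (-0.685) and TIA1 (-0.589), and PABPC1 was nearest to FXR1 (0.881). Among all tested genes the closest ratio patterns were those of RRP15 (r = 0.987) and SLU7 (0.984) to FXR1, of OAT (0.984) to G3BP2, of CHERP (0.982) to ATXN2L and of ALDH3A2 (0.981) to TIAL1. In total RNA the closest genes included DBF4 for FXR1 (r = 0.982), NCAPG2 for TIA1 (0.954), SGK3 for ATXN2 (0.950), PARP14 for TIAL1 (0.948) and U2SURP for G3BP2 (0.946). G3BP1 was closest to PELI1 (0.915). These genes were taken from the top of 12855 correlations over only 12 cultures, so their values are a description and no test.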

How the data were processed

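The deposited table holds raw counts of reads per gene, which the authors made by trimming reads, aligning them to hg19 with STAR 2.6.1a and counting on Gencode v34 genes, without normalization. TruSeq stranded poly(A)+ libraries were sequenced. Polysomal RNA came from heavy fractions (13 to 17) of 15 to 50% sucrose gradients. Samples were grouped from their labels, with HU dose and time from the methods of the study. Of 20345 gene IDs, 19086 were protein-coding in Gencode v44 on hg19 and entered the tests, while 708 IDs were not in that annotation and 551 were of other types. The members and lists were chosen with earlier results of these data known.

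Counts were tested in R 4.3.3 with the two-sided quasi-likelihood F-test of edgeR 4.0.16 (TMM, filterByExpr at a minimum count of 10 and total of 15, Benjamini-Hochberg adjustment over all genes tested, threshold 0.05). Comparisons of 1 fraction used the libraries of the conditions compared, TE was the interaction of fraction and condition, and means and differences of responses used all 4 conditions. These fits treated the total and polysomal libraries of a culture as independent. Their pairing entered only with the culture block among the alternatives. All 10 members passed the filter in every comparison. The standard error is the log2 change divided by the root of F. Per-library values are CPM scaled with TMM factors over the 24 libraries. The ratios printed for single cultures have no pseudocount. A pseudocount of 0.5 was added for the GC trend, the overlap of ratios between groups and the correlations. The GC correction took a loess curve (span 0.3) of log2 CPM on exon GC as an offset. Levels per kilobase used the canonical transcript. Scripts were tested on simulated counts. Alternatives were DESeq2 1.42.0, RLE size factors, 2 other filters, all gene types, GC correction, blocks for replicate number and culture, a fit of all libraries, and leaving out each culture. Named genes are the members, LSM14A, markers, listed genes past the threshold (up to 4 per direction with the smallest p) and the genes nearest in pattern to a member. The result for 1 gene that this rule names is not reported here. Replicate numbers were checked for pairing by the correlation of deviations from the condition means. In total RNA 3 of 6 pairs of conditions had all correlations over 0.1, and in polysomal RNA 1 of 6 (siCTRL NT and siCTRL HU), so the block stayed an alternative, given in the text where a paired comparison changes. It is also given for siLSM14A against siCTRL in the mean of NT and HU in total RNA, where not all conditions pair. No replicate pair agreed within sampling noise (chi-square per gene 6.01 to 120).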

Additional observations from a re-analysis of the deposited data

How the results depend on the processing

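No member was called between conditions in the alternatives, with 1 exception. The count of members called in total RNA for siLSM14A against siCTRL in the mean of NT and HU was 0 as reported and 1, PABPC1, with DESeq2, with GC correction, with the replicate block and with the replicate block plus GC correction. Of all genes, 3.13% passed there as reported, 5.09% with GC correction and 5.78% with the replicate block. Of 3670 recomputed values between conditions 347 changed sign, none of them called, and the largest of these was 0.27 as reported. The replicate block changed no other call of a member. In polysomal RNA, where numbers paired siCTRL NT with siCTRL HU, it called 0 of 10 members and 0.00812% of genes. Of the listed genes it added PABPC4 in HU and PPP1R15A, as given above. It also added FAM120A in the mean of NT and HU (-0.105, adjusted p = 0.049 by edgeR), where the block called 5.78% of all genes. FAM120A was also called with DESeq2 and with GC correction. IGF2BP3 missed the threshold in HU with all libraries in 1 fit (-0.281, adjusted p = 0.074 by edgeR). In polysomal against total RNA, leaving out 1 culture gave 0 to 7 members called in siCTRL NT, 6 in siCTRL HU, 2 to 7 in siLSM14A NT, 3 to 8 in siLSM14A HU and 7 to 8 in the mean. The share of all genes called in those fits is not given here, and the cause of these ranges was not tested.

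In the mean of polysomal against total RNA, GC correction, alone and with the replicate block, turned CAPRIN1 to 0.39 and 0.385, ATXN2 to 0.14 and 0.135, ATXN2L to -0.209 and -0.214, TIA1 to 0.266 and 0.262, TIAL1 to 0.279 in both, FXR1 to 0.013 and 0.011, and EIF2S1 to 0.662 and 0.661. ATXN2, near 0 as reported, was 0.002 with RLE size factors and with DESeq2, and -0.112 to 0.013 when each culture was left out, with 0.013, 0.009 and 0.003 above 0. Depth is not limiting for the members, whose lowest library count was 233 (FMR1, polysomal RNA), while the spread of polysomal libraries widens every TE interval.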
